A study of Bos taurus with 12 samples.

Results

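Cell cycle and replication families were followed, by the transcripts of 122 genes, in chromaffin cells from bovine adrenal glands, which make and release catecholamines. They are the genes whose symbol on the array begins with the family names MCM, CDC, CDK, cyclins A, B, D and E, CENP, ORC, GINS, E2F, AURK, BUB, PLK, RFC, RRM, TOP2 or KIF, together with PCNA and the subunits of DNA polymerases alpha, delta and epsilon. A digit had to follow MCM, CDC, CDK, ORC, PLK, RFC, KIF and the cyclin names, so CDKN and CDCA genes are left out. These 122 are among 9155 genes with a single symbol. They were covered by 172 probe sets, with more than 1 for 41 genes, and each gene was represented by its brightest probe set over the 12 arrays. The choice used gene names and mean signal, not any difference between groups. The groups were cells given interleukin-6 (IL6, 10 nM, 24 h), cells given human interferon alpha (IFNα, 1 nM, 24 h), cells given histamine (10 µM, 6 h) and untreated cells, with 3 arrays each. The labels give adrenal glands as the tissue and no strain, sex or age of the animals, and no length of culture for the untreated cells. The design text calls the triplicates technical, so each p-value below measures the spread between arrays and not between animals or cultures.

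Before S phase the origin recognition complex (ORC) and CDC6 load the MCM helicase onto DNA, a step called licensing. CDC7, CDC45 and GINS then start the helicase, and DNA polymerases follow with the sliding clamp PCNA, which the RFC complex loads. Cyclins and their kinases (CDKs) drive each step, E2F factors control the transcription of many of these genes, and polo-like (PLK), Aurora and BUB kinases, centromere proteins (CENP) and mitotic kinesins carry out and check chromosome segregation. Mature chromaffin cells divide rarely, and a culture of the adrenal medulla can also hold fibroblasts, endothelial cells and cortical cells that divide. The family names cover more than the cycle: CDK5 acts in neurons, CDC42 partners act on the cytoskeleton, many kinesins carry cargo along axons, and CDC40 and CDC5L belong to the splicing machinery. By role, 80 of the 122 genes belong to the cycle itself (12 licensing, 20 replication fork, 15 G1 and S control, 22 mitosis, 11 centromere) and 42 do not.

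All values are log2 expression. Array means were equal (6.79), which the quantile normalization of the deposited values brings about. Repeats of a group correlated at 0.993 to 0.998 across probe sets, whose values run from 2.88 to 14.14. A span that wide raises such correlations. The 7 measured chromaffin markers, TH and CHGA among them, lay above the median of every array. A member was called at an adjusted p under 0.05 in limma, with adjustment over all 24016 probe sets tested, and a fold of at least 1.5. The adjusted p alone is given as a second, looser count. Many mitotic members were dim: 19 of the 33 mitosis and centromere genes had a mean below the array median (6.40 to 6.46), against 6 of 32 replication genes, 28.7% of all members and 31.4% of the 9155 genes. ORC1, CDC7, BUB1, CCNB1, KIF18A and CENPA had means under the lower quartile of each array (5.02 at its lowest), where differences are compressed. These positions describe probe signals and not transcript numbers.

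The 4 groups differed (moderated F test, limma) in 76 members, or 62.3%, against 60.5% of all genes with a symbol. In at least 1 of 4 comparisons 14 members (11.5%) were called, against 13.6% of all genes, so the families as a whole moved about as often as other genes did. Of the others, 48 passed the adjusted p in no comparison. The 3 comparisons with untreated cells share the same untreated arrays, so they are not independent of each other. The 5 members with the widest range of group means were CENPT (1.44), PLK2 (1.19), KIF23 (1.13), PLK3 (1.07) and CDC42EP2 (0.87).

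**Figure D1:**
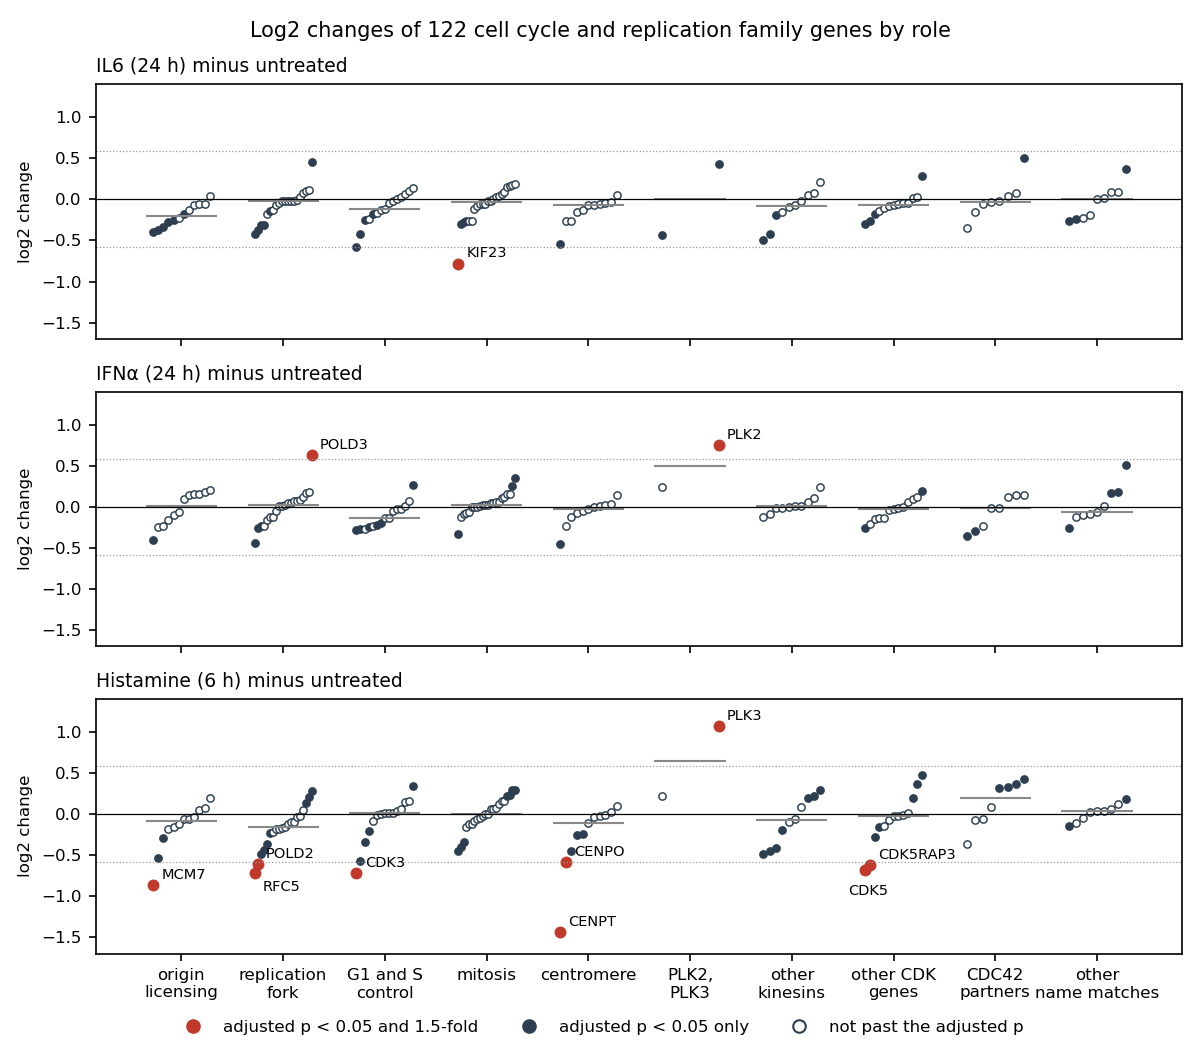
Log2 change of each of the 122 members (points) against untreated cells, by role, after IL6, IFNα and histamine. Grey bars are medians of a role and dotted lines mark a fold of 1.5. Called members are named: KIF23 after IL6, POLD3 and PLK2 after IFNα, and 9 genes after histamine, of which CENPT lies lowest at -1.44 and PLK3 highest at 1.07.

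The first comparison asked which of these genes differ after 24 h with IL6. A single member was called, or 0.82% of the 122 against a background of 2.76% of all genes (1.04% lower), and it fell. KIF23, a kinesin of the central spindle that is needed for cell separation at the end of mitosis, read 6.73, 6.67 and 6.57 on the IL6 arrays, against 7.46, 7.44 and 7.42 on the untreated arrays. The groups do not overlap, and the log2 change was -0.78 (SE 0.07; limma, adjusted p = 1.54e-06). Leaving out any 1 array gave -0.82 to -0.74, and KIF23 remained called each time. At the adjusted p alone, 29 members were lower (23.8%, background 12.9%) and 5 were higher (4.1%, background 8.32%), all but KIF23 by less than 1.5-fold. The median member changed by -0.06 and the median gene by -0.01. A list of hypoxia and glycolysis genes had been chosen because earlier results of these data showed them raised on some arrays. They were raised on IL6 repeats 2 and 3 and IFNα repeat 3, which their choice makes likely. Without those arrays, which leaves 1 IL6 array assumed to vary like the other groups, 16 members were lower and 5 higher at the adjusted p alone. With cyclic loess on top of the deposited values the split was 24 lower and 8 higher.

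Of the 12 origin licensing genes, 6 were lower after IL6 at the adjusted p (50%, background 12.9%) and none higher, with a median of -0.20, and limma called 0 of them past 1.5-fold, with 7 at an unadjusted p under 0.05. ORC2, ORC3, ORC4 and ORC6 were among them. ORC3 read 7.06, 6.95 and 6.95 on the IL6 arrays, against 7.41, 7.26 and 7.40 on untreated arrays, without overlap (log2 change -0.37, SE 0.07; limma, adjusted p = 0.00209). ORC6 read 8.08, 8.15 and 8.0 on IL6 arrays, against 8.42, 8.42 and 8.40 on untreated arrays. Its second probe set had the same log2 change as the first, -0.34. ORC2 had a log2 change of -0.28, and its second, dimmer probe set had 0.14 (not past the adjusted p). ORC4 had -0.17, ORC5 had 0.05 and the dim ORC1 had -0.07. Of the helicase subunits, MCM4 and MCM7 were lower (log2 changes -0.39 and -0.25), while MCM3, MCM5 and MCM6 (-0.12, -0.23 and -0.05) and the loader CDC6 (-0.05) did not pass the adjusted p.

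At the replication fork, 5 of 20 members were lower after IL6 at the adjusted p (25%, background 12.9%) and 1 was higher (5%, background 8.32%), again with limma calling 0 past 1.5-fold and 7 at an unadjusted p under 0.05. RRM2, the small subunit of the ribonucleotide reductase that makes DNA precursors, read 7.49, 7.30 and 7.34 on IL6 arrays, against 7.78, 7.80 and 7.83 on untreated arrays (log2 change -0.43). RRM1, the large subunit, had a log2 change of -0.003. CDC45, a partner of the MCM helicase, and the clamp loader subunits RFC4 and RFC5 had log2 changes of -0.37, -0.31 and -0.31, and the clamp PCNA had -0.14. The second probe set of RFC5 had -0.07 and did not pass. The exception was POLE4, a small histone-fold subunit of polymerase epsilon. It read 9.55, 9.48 and 9.49 on IL6 arrays, against 9.03, 9.03 and 9.09 on untreated arrays, all higher (log2 change 0.46, SE 0.06; limma, adjusted p = 5.02e-05).

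Of the cyclins, CCNE2 and CCND1 were lower after IL6. CCNE2, a cyclin of the entry into S phase, read 5.92, 6.17 and 5.97 on IL6 arrays, against 6.60, 6.50 and 6.70 on untreated arrays, with no overlap (log2 change -0.58, SE 0.09). It missed the fold minimum narrowly and was called without untreated repeat 2 (-0.63), without IL6 repeat 2 (-0.655), and when those 3 hypoxia-marked arrays were dropped (-0.68). CCND1, the cyclin D that answers to growth factors, read 6.07, 6.23 and 6.15 on IL6 arrays, against 6.60, 6.60 and 6.53 on untreated arrays (log2 change -0.43; limma, adjusted p = 0.00311). CCND2 and CCND3 had log2 changes of -0.04 and -0.17 and CCNE1 had -0.02, none past the adjusted p. At the adjusted p, 4 of the 22 mitosis genes were lower after IL6 (18.2%, background 12.9%). In limma 0 were higher (background 8.32%), with 8 at an unadjusted p under 0.05 in either direction. Of 11 centromere genes 1 was lower (9.09%). The mitotic kinase CDK1 (-0.28), the checkpoint kinase BUB1B (-0.29) and the anaphase-promoting complex subunit CDC23 (-0.26) were lower at the adjusted p. PLK1, AURKA, AURKB, CCNB1, CCNA2 and CDC20 were not past it, with log2 changes from -0.12 to 0.19.

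**Figure D2:**
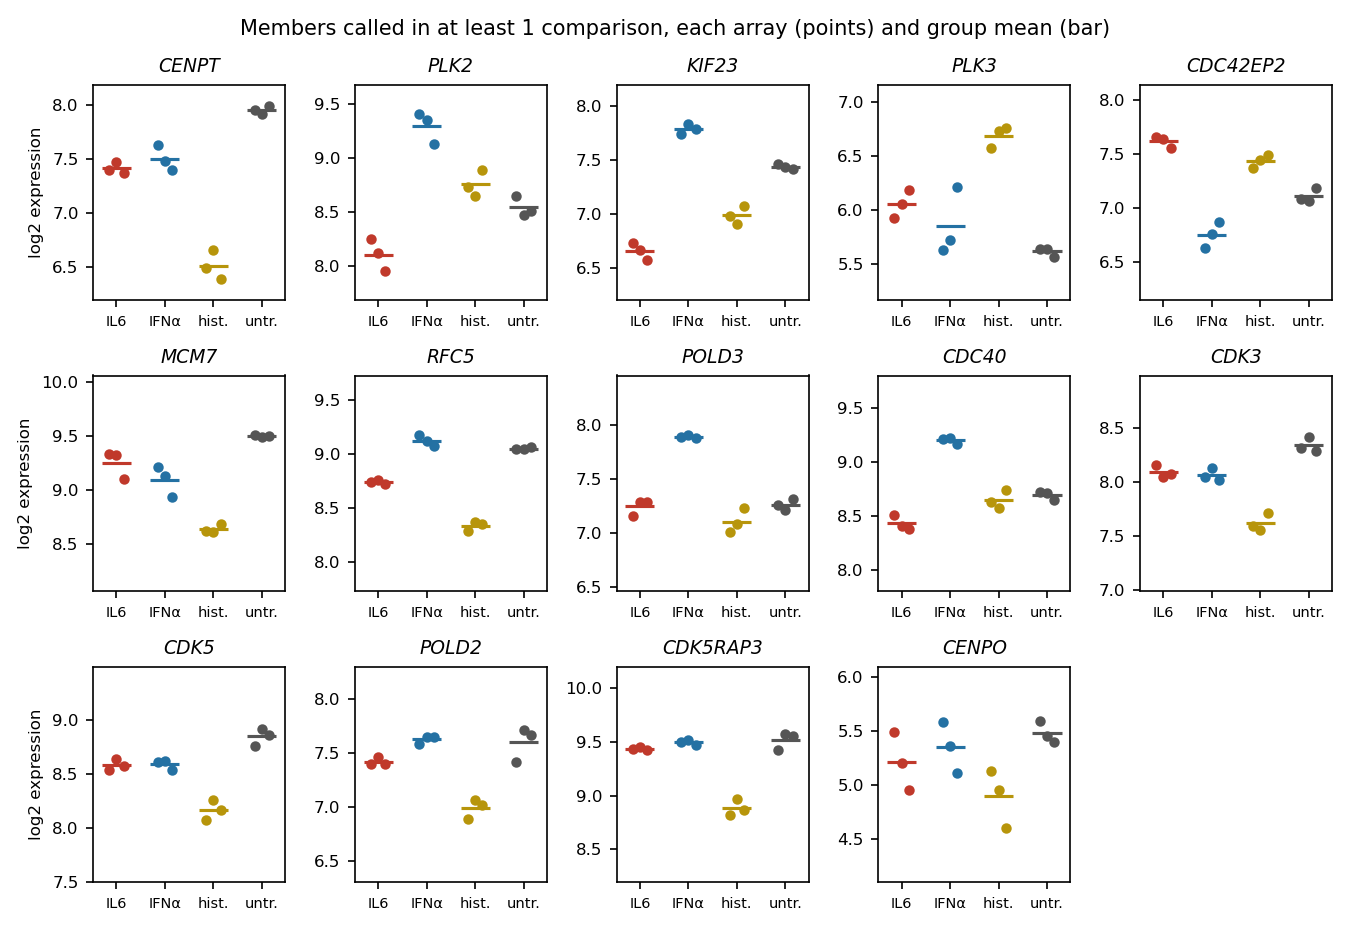
Log2 expression of the 14 members called in at least 1 comparison on each array, with group means as bars and axes that all span 2 log2 units. CENPT, MCM7, RFC5, CDK3, CDK5, CDK5RAP3, POLD2 and CENPO are lowest after histamine, PLK3 is highest there, and KIF23 and PLK2 are lowest after IL6 and highest after IFNα.

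After 24 h with IFNα, 2 members were called (1.64%, background 3.95%, of which 2.86% higher), and both rose. PLK2, a polo-like kinase induced by serum, stress and neuronal activity, read 9.41, 9.36 and 9.13 on IFNα arrays, against 8.65, 8.48 and 8.51 on untreated arrays. The groups are separate, and PLK2 rose 1.69-fold (log2 change 0.75, SE 0.09; limma, adjusted p = 2.82e-05). POLD3, a subunit of DNA polymerase delta that also serves in break-induced repair, read 7.89, 7.91 and 7.88 on IFNα arrays, against 7.26, 7.21 and 7.32 on untreated arrays. It rose 1.55-fold (SE 0.07 on the log2 scale), while 0.38 and 0.23 were measured by its other probe sets, neither called. With the mean of all 3 probe sets its log2 change was 0.41 and it was not called. At the adjusted p alone 9 members were higher and 15 lower (7.38% and 12.3%, backgrounds 9.14% and 12.9%), and the median change was -0.005, against -0.02 for all genes. The split was 13 higher and 12 lower with cyclic loess, and the 24 members became 14 without untreated repeat 2 and 14 without untreated repeat 3.

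Of the 32 replication genes, 4 were lower and 1 higher after IFNα at the adjusted p (12.5% and 3.12%, backgrounds 12.9% and 9.14%). The higher 1 was POLD3, which was also called. MCM7 and CDC45 were lower at the adjusted p (log2 changes -0.41 and -0.45), as were RRM1 and RRM2 (-0.26 and -0.23), while ORC2, ORC3, ORC4 and ORC6 had 0.15, 0.21, 0.10 and 0.17 and did not pass it. In G1 and S control 5 of 15 genes were lower (33.3%, background 12.9%) and 1 was higher (6.67%, background 9.14%). CDK4, the partner of D cyclins, read 9.84, 9.89 and 9.73 on IFNα arrays, against 10.02, 10.16 and 10.12 on untreated arrays (log2 change -0.28). CCND3, a cyclin D, read 8.93, 9.0 and 9.12 on IFNα arrays, against 8.76, 8.77 and 8.74 on untreated arrays (log2 change 0.26; limma, adjusted p = 0.0387). Of 22 mitosis genes 9.09% were higher and 4.55% lower, with the same backgrounds. KIF23 (0.35) and the anaphase-promoting complex subunit CDC26 (0.25) were higher and KIF22 (-0.33) was lower.

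Histamine for 6 h gave the most calls: 9 members, or 7.38% against 6.98% of all genes, with 8 lower and 1 higher (backgrounds 3.21% and 3.77%). In all 9 the histamine arrays lay outside the range of the untreated arrays, which the call itself makes likely. Of the 9, 3 have a second probe set, and 1 of these was also called. The calls of CENPT, MCM7, CDK3, CDK5, POLD2 and PLK3 rest on 1 probe set each. The same holds for KIF23 and PLK2 in the other comparisons. Of all 122 members, 39 lay wholly below and 24 wholly above the untreated arrays. Of the 9155 genes, 2414 (26.4%) lay below and 2478 (27.1%) above. CENPT, a centromere protein that binds DNA and holds the outer kinetochore, read 6.49, 6.66 and 6.39 on histamine arrays, against 7.95, 7.92 and 7.99 on untreated arrays. Every histamine array was more than 1 log2 unit below every untreated array. CENPT thus had the largest change of any member, -1.44 (SE 0.08; limma, adjusted p = 1.10e-08), or 2.71-fold. It was also lower, by less than 1.5-fold, after IL6 (-0.54) and IFNα (-0.45). Its complex partners CENPS and CENPX were lower after histamine at the adjusted p (-0.25 and -0.24), as was CENPM (-0.45). CENPO, in another centromere complex, was called at -0.59, with a histamine mean under the lower quartile of the arrays. The call of CENPO held in 14 of 22 alternatives. It was lost without histamine repeat 3 (-0.44) or untreated repeat 1 (-0.53), with median centring (-0.56), quantile normalization, cyclic loess (both -0.58), array weights (-0.53) and limma treat, and as the mean of its probe sets (-0.27). Its second probe set had 0.04.

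PLK3, a polo-like kinase of the stress response, was the called member that rose after histamine. Its mean signal lies below the array median, so it is absent from the run without the dimmer 50% of probe sets. It read 6.57, 6.73 and 6.76 on histamine arrays, against 5.64, 5.64 and 5.56 on untreated arrays, which is 2.10-fold higher (log2 change 1.07, SE 0.12; limma, adjusted p = 1.20e-05). PLK3 was higher after IL6 too (0.44; limma, adjusted p = 0.0262). After IFNα it read 5.63, 5.72 and 6.21, where repeats 2 and 3 lay above the untreated arrays and repeat 1 within their range. PLK2 was lower after IL6 (-0.44; limma, adjusted p = 0.0042). It read 8.74, 8.65 and 8.89 on histamine arrays, a log2 change of 0.21 that did not pass the adjusted p, and PLK1 and PLK4 had -0.09 and 0.06.

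Among replication genes, subunits of the helicase, the clamp loader and polymerase delta were lower after histamine. MCM7 read 8.62, 8.61 and 8.68 on histamine arrays, against 9.51, 9.49 and 9.50 on untreated arrays (log2 change -0.86, SE 0.07; limma, adjusted p = 6.82e-07). RFC5 read 8.28, 8.37 and 8.35 on histamine arrays, against 9.04, 9.04 and 9.06 on untreated arrays (log2 change -0.71, SE 0.05). Its second probe set had -0.48. POLD2, the subunit that joins polymerase delta together, read 6.89, 7.06 and 7.02 on histamine arrays, against 7.42, 7.71 and 7.67 on untreated arrays. Its groups are separate, its log2 change was -0.61 (SE 0.08), and it fell below the fold minimum without histamine repeat 1 (-0.56), untreated repeat 2 (-0.555) or untreated repeat 3 (-0.575). MCM4, MCM5, RFC2, RFC4, CDC45 and RRM1 were lower at the adjusted p, with log2 changes from -0.54 to -0.24. POLE3, POLE4 and PCNA were higher at that threshold (0.28, 0.20 and 0.13), while ORC subunits, RRM2 (-0.10) and MCM6 (0.19) did not pass it. Over the 32 replication genes 9 were lower (28.1%, background 20.5%) and 3 higher (9.38%, background 20.4%).

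**Figure D3:**
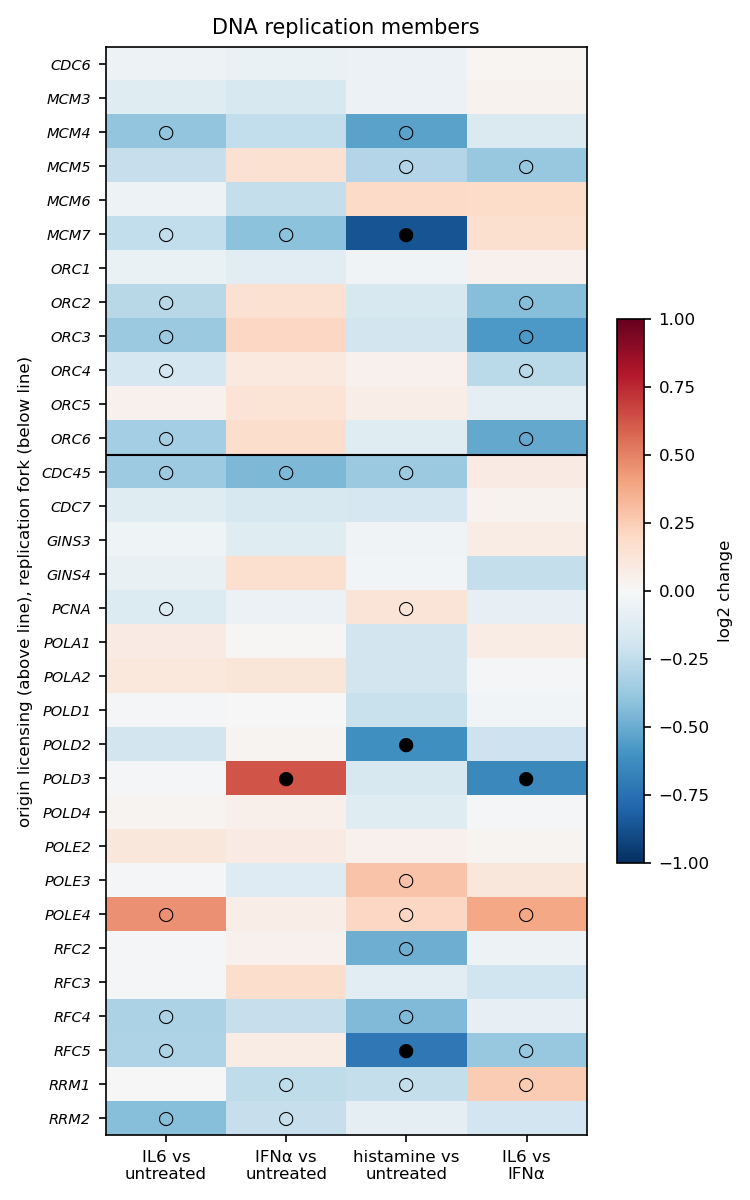
Log2 change of the 32 DNA replication members in the 4 comparisons (colour, red higher and blue lower in the group named first). Filled circles mark members called at a fold of 1.5 and open circles those past the adjusted p alone. ORC2, ORC3, ORC4 and ORC6 are blue for IL6 against untreated and IL6 against IFNα, and MCM7, POLD2 and RFC5 carry the filled circles of histamine.

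CDK3, a kinase of the exit from quiescence, read 7.60, 7.56 and 7.72 on histamine arrays, against 8.32, 8.42 and 8.29 on untreated arrays (log2 change -0.72, SE 0.06). CDK5, the neuronal kinase that acts on synaptic vesicle release and on tyrosine hydroxylase, read 8.07, 8.26 and 8.17 on histamine arrays, against 8.76, 8.92 and 8.86 on untreated arrays (log2 change -0.68; limma, adjusted p = 1.43e-06). CDK5RAP3, named for its binding to a CDK5 activator and part of the UFM1-conjugating machinery, fell by 0.63 on the log2 scale, and its second probe set fell by 0.82. The CDK5 activator CDK5R1 read 13.72 to 13.87 over all 12 arrays, close to the highest value of an array (14.01 to 14.14), so its small differences do not show stability. Its probe set with the lowest signal had log2 changes of 0.31 after IL6 (limma, adjusted p = 0.0222), -0.02 after IFNα and -0.09 after histamine. A further probe set below that range, with a mean of 10.33, had 0.03, -0.03 and 0.06 in the same order. CDK7, which activates other CDKs and is part of the transcription factor TFIIH, was higher after histamine (0.47; limma, adjusted p = 3.44e-05) and IL6 (0.29). The other, dimmer probe set of CDK7 had -0.08 and -0.20 there, neither past the adjusted p, so its direction rests on 1 probe set. CDK1, CDK2 and CDK4 had log2 changes of -0.12, 0.03 and -0.09 after histamine and did not pass the adjusted p.

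Cyclins and mitotic genes moved both ways after histamine. CCNE2 read 5.96, 5.92 and 6.21 on histamine arrays (log2 change -0.57), and it was called without untreated repeat 2 (-0.62) or histamine repeat 3 (-0.66). CCND3 was lower (-0.34), E2F4, a repressor of the E2F family, was higher (0.34), and CCND1 had -0.01. Of 22 mitosis genes 4 were higher and 3 lower at the adjusted p (18.2% and 13.6%, backgrounds 20.4% and 20.5%), with limma calling 0 past 1.5-fold and 7 at an unadjusted p under 0.05. KIF23, BUB1B and KIF22 were lower (-0.45, -0.40 and -0.35), and CDC16, CDC26, BUB3 and the dim CCNB1 were higher (0.29, 0.29, 0.22 and 0.24). Over all members, 20 were higher and 30 lower at the adjusted p (16.4% and 24.6%, backgrounds 20.4% and 20.5%), with a median of -0.04 against 0.01 for all genes.

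Genes outside the cycle differed as well. Of the 8 CDC42 partners 4 were higher after histamine (50%, background 20.4%) and none lower (background 20.5%). They were CDC42SE2 (0.43, with 0.63 for its second probe set, which was called), CDC42BPA (0.36), CDC42EP2 (0.32) and CDC42SE1 (0.31). The second probe set of CDC42EP2 had 0.15 and did not pass the adjusted p. Of the 10 kinesins not placed under mitosis, 3 were lower after IL6 (30%, background 12.9%). After IFNα limma put 0 past the adjusted p (backgrounds 9.14% higher and 12.9% lower), with 1 at an unadjusted p under 0.05. After histamine 3 were higher and 4 lower (30% and 40%, backgrounds 20.4% and 20.5%). KIF21A, a kinesin of axons and dendrites, read 10.27, 10.14 and 10.08 on IL6 arrays, against 10.75, 10.62 and 10.62 on untreated arrays (log2 change -0.50; limma, adjusted p = 7.34e-05). Its other probe sets had -0.35 and -0.33, of which the first passed the adjusted p. The carrier KIF5B was higher after histamine (0.22) and KIF3C was lower (-0.41). KIF3A, KIF3B and KIF5C had -0.07, -0.15 and 0.22 after IL6, not past the adjusted p. TOP2B, a type II topoisomerase found also in cells that do not divide, had log2 changes of -0.24, -0.26 and -0.15 after IL6, IFNα and histamine, each past the adjusted p.

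IL6 and IFNα, both given for 24 h, were also set against each other, at the labelled doses of 10 nM and 1 nM. Limma called 5 members (4.1%, background 6.96%), 4 lower after IL6 and 1 higher (backgrounds 3.87% and 3.09%). PLK2 was 2.28-fold lower with IL6, at 8.25, 8.12 and 7.96 on IL6 arrays, against 9.41, 9.36 and 9.13 on IFNα arrays (log2 difference -1.19, SE 0.09; limma, adjusted p = 1.30e-07). KIF23 was 2.19-fold lower, at 6.73, 6.67 and 6.57 on IL6 arrays, against 7.74, 7.83 and 7.79 on IFNα arrays. CDC40, a splicing factor, read 8.51, 8.41 and 8.38 on IL6 arrays, against 9.21, 9.22 and 9.17 on IFNα arrays. No array of one cytokine reached those of the other in these 3 genes. The same held for 2094 of the 9155 genes in the lower direction and 2093 in the higher. Of the 122 members it held for 35 and 11 in the same order. For CDC40 the log2 difference was -0.77 (SE 0.06), and its second probe set was called at -0.93. Against untreated cells CDC40 had 0.51 after IFNα and -0.26 after IL6, and its second probe set had 0.43 and -0.50. POLD3 was lower (-0.65, and -0.40 as the mean of its 3 probe sets, not called). CDC42EP2, an effector of the small GTPase CDC42, was higher, at 7.66, 7.64 and 7.56 on IL6 arrays, against 6.63, 6.76 and 6.87 on IFNα arrays (log2 difference 0.87, SE 0.07). Its second probe set had 0.36, past the adjusted p and not called. Against untreated cells CDC42EP2 had 0.51 after IL6 and -0.36 after IFNα. Its second probe set had 0.13 and -0.23 there, neither past the adjusted p.

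Licensing genes differed between the cytokines below the fold minimum. ORC3, ORC6, ORC2, MCM5 and ORC4 were lower with IL6 (log2 differences -0.58, -0.51, -0.43, -0.38 and -0.27), and 0 of 12 licensing genes were higher at the adjusted p in limma (41.7% lower, background 18.7%), though 7 had an unadjusted p under 0.05 in either direction. ORC3 read 7.06, 6.95 and 6.95 on IL6 arrays, against 7.60, 7.61 and 7.48 on IFNα arrays, and was called without IL6 repeat 1 (-0.61) or IFNα repeat 3 (-0.62). CCND1 and CCND3 were lower with IL6 (-0.50 and -0.43), as was CDK1 (-0.34). The second probe set of ORC2 had 0.18, not past the adjusted p. RRM1 (0.25), POLE4 (0.39) and CDC5L (0.35), another splicing factor, were higher. The second probe set of CDC5L had -0.11. Over all members 24 were lower and 8 higher at the adjusted p (19.7% and 6.56%, backgrounds 18.7% and 16.4%). The split was 18 lower and 13 higher with median centring and 22 lower and 14 higher with quantile normalization.

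Of 75 other cell cycle genes, listed for comparison and including inhibitors, RPA and condensin subunits and spindle genes, 49 were measured. After IL6, 10 were lower and 1 was higher at the adjusted p (20.4% and 2.04%, backgrounds 12.9% and 8.32%). After IFNα, 4 were lower and 2 higher (8.16% and 4.08%, backgrounds 12.9% and 9.14%). After histamine, 20 were lower and 1 was higher (40.8% and 2.04%, backgrounds 20.5% and 20.4%). CDKN2C, an inhibitor of CDK4 and CDK6, read 6.94, 6.89 and 6.82 on IL6 arrays, against 7.44, 7.34 and 7.53 on untreated arrays (log2 change -0.55). HMMR, a hyaluronan-binding protein of the spindle, was the called gene of this list after histamine (-0.59). The single-strand DNA binding subunits RPA1, RPA2 and RPA3 were lower there (-0.44, -0.56 and -0.22), as was the thymidylate synthase TYMS (-0.49). The inhibitor CDKN1A read 10.46, 10.61 and 10.74 on histamine arrays and 11.38, 11.42 and 11.29 on IFNα arrays, against 10.92 to 11 on untreated arrays, with log2 changes of -0.37 and 0.39. After IL6 and IFNα limma called 0 of the 49 past 1.5-fold, with 20 and 10 at an unadjusted p under 0.05.

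**Figure D4:**
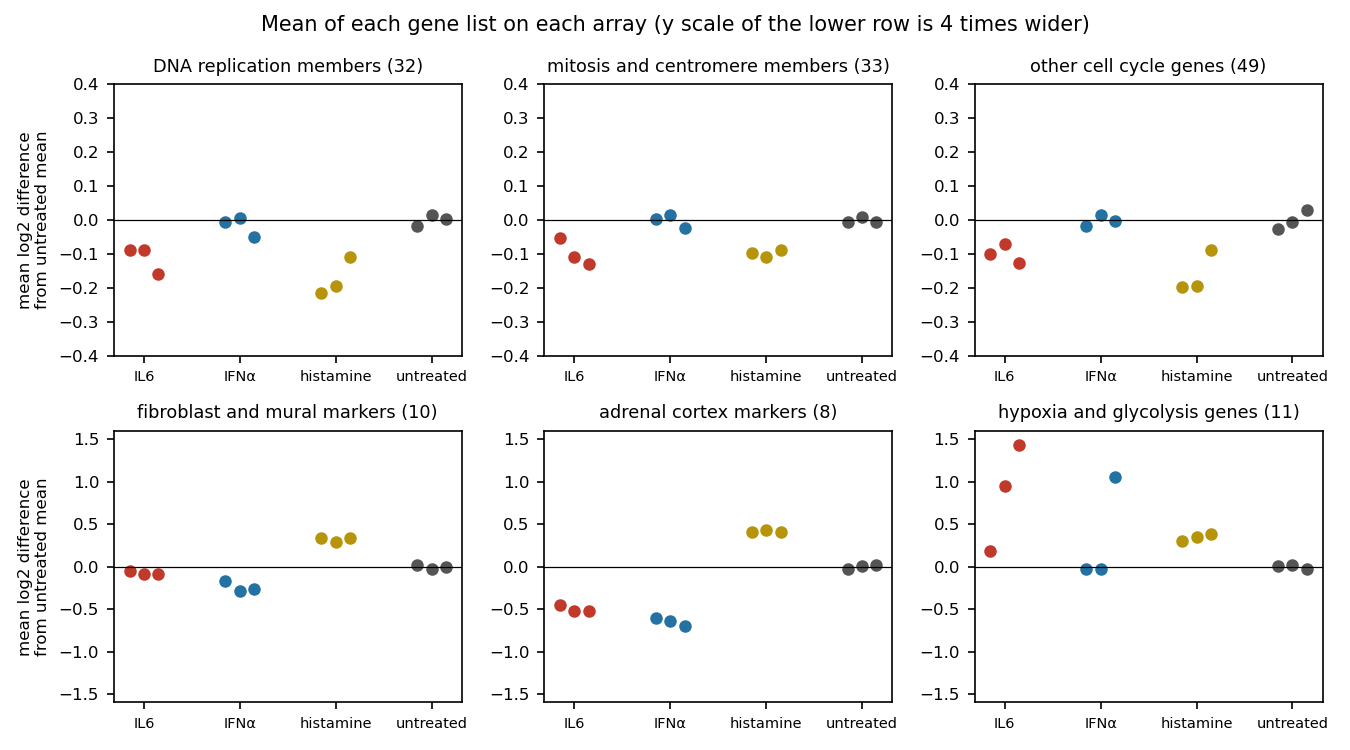
Mean log2 difference from the untreated mean of 6 gene lists on each array, with a wider scale in the lower row. The 32 replication genes lie at -0.16 to -0.09 on IL6 arrays and -0.21 to -0.11 on histamine arrays, and near 0 on IFNα arrays, while cortex and hypoxia genes show larger differences.

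Fewer cells of a dividing type and less RNA per cell cannot be told apart in bulk RNA. The mean of the 32 replication genes was 7.36 to 7.43 on IL6 arrays, 7.46 to 7.52 on IFNα arrays and 7.30 to 7.41 on histamine arrays, against 7.497 to 7.53 on untreated arrays. Markers of chromaffin cells and of other cell types moved over the same arrays. The 7 chromaffin markers averaged 12.09 to 12.37 on IL6 arrays and 12.45 to 12.70 on IFNα arrays. They averaged 12.77 to 12.95 on histamine arrays, against 12.45 to 12.50 on untreated arrays. At the adjusted p, 3 were lower and 1 higher after IL6 (backgrounds 12.9% and 8.32%). After histamine 4 were higher and 0 lower (backgrounds 20.4% and 20.5%). PNMT moved most, by -0.71 after IL6 and 2.29 after histamine. Of 10 fibroblast and mural markers 8 were higher at the adjusted p after histamine (80%, background 20.4%) and 0 lower, with means of 7.91 to 7.97 on histamine arrays, 7.54 to 7.57 on IL6 arrays and 7.34 to 7.45 on IFNα arrays, against 7.60 to 7.65 on untreated arrays. Of 8 adrenal cortex markers 5 were lower after IL6, 5 lower after IFNα and 5 higher after histamine (62.5% each, backgrounds 12.9%, 12.9% and 20.4%), with means of 5.86 to 5.94 on IL6 arrays, 5.70 to 5.79 on IFNα arrays and 6.80 to 6.82 on histamine arrays, against 6.37 to 6.41 on untreated arrays. The 8 endothelial markers averaged 5.54 to 5.73 on IL6 arrays, 5.52 to 5.55 on IFNα arrays and 5.65 to 5.78 on histamine arrays, against 5.80 to 5.86 on untreated arrays. The 8 leukocyte markers averaged 6.33 to 6.39 on IL6 arrays, 6.01 to 6.03 on IFNα arrays and 6.17 to 6.23 on histamine arrays, against 6.00 to 6.06 on untreated arrays. They did not move as 1: after IL6, CORO1A and CD14 were higher (1.70 and 1.03) and ITGB2 lower (-0.95). After histamine CORO1A and CD68 were higher (0.70 and 0.52) and 1 marker was lower at the adjusted p. Among endothelial markers after histamine, the dim CLDN5 was higher (0.62) and 2 were lower, TEK by the most (-0.81). Among fibroblast and mural markers after IL6, POSTN was higher (0.94) and 3 were lower, ACTA2 by the most (-0.67). The 11 hypoxia genes stood 0.18, 0.96 and 1.43 above the untreated mean on IL6 repeats 1, 2 and 3 and at -0.02, -0.02 and 1.06 on IFNα repeats 1, 2 and 3. On histamine repeats 1, 2 and 3 they stood 0.31, 0.35 and 0.39 above it. These hypoxia genes were chosen for a rise on some arrays in earlier results, so their rise is no independent observation. The part of these markers in the changes of cell cycle genes was not tested. Without IL6 repeats 2 and 3 and IFNα repeat 3, KIF23 had a log2 change of -0.71 after IL6 and remained called, and ORC6 had -0.33 (limma, adjusted p = 0.00709). ORC3 had -0.30 there and no longer passed (limma, adjusted p = 0.0574).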

How the data were processed

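Total RNA was labelled in 1 cycle and hybridised to Affymetrix bovine arrays. The authors' deposited table holds log2 expression values. RMA made them, per the submitters' processing notes; version and options: not given in the sources used here. RMA corrects background, normalizes quantiles and summarises probes, so differences in total RNA are removed and dim signals are compressed. After dropping 112 control probe sets, limma 3.58.1 (R 4.3.3) tested 24016 with 4 groups, a variance trend and Benjamini-Hochberg adjustment over all of them. Symbols came from the platform annotation: 13292 probe sets have 1, 86 several and 10638 none, and all 122 members matched RefSeq by gene ID. Genes named were every called member, up to 10 of the largest rises and falls per comparison, 10 with the widest range of group means, and a fixed set by role. CDC7, CDC23, CENPM, CENPS, CENPX, KIF3C, ORC4, ORC5, PLK4, POLE3 and, from the other cell cycle genes, those not called were singled out after their values were seen. Alternatives covered scaling, dim probe sets, the variance model, the fold minimum, probe set choice, a replicate block and arrays left out. The fit was tested on simulated data. The number of arrays limits precision. The members, roles and lists were chosen with earlier results of these data known.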

Additional observations from a re-analysis of the deposited data

How the results depend on the processing

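The fold minimum decided the counts of called members most. Without it 34 members passed after IL6, 24 after IFNα, 50 after histamine and 32 between IL6 and IFNα. A test against a fold of 1.2 (limma treat) called 2 after IL6 and 9 between the cytokines. The mean of all probe sets left 1 call after IFNα, without POLD3. Leaving out any 1 array gave 1 to 2 calls after IL6, 2 after IFNα, 8 to 9 after histamine and 5 to 6 between the cytokines, and dropping all 3 hypoxia-marked arrays gave 2 after IL6. No member past the adjusted p in a comparison changed direction there under the alternatives run. Members not past it were not checked for direction. Single calls changed for CENPO, POLD2, POLD3, CCNE2, ORC3 and a few others below the fold minimum. With array weights the looser counts grew to 42 lower and 10 higher after IL6 and 48 lower and 22 higher between the cytokines. With the replicate number as a block, the called counts stayed at 1, 2, 9 and 5. Same-numbered arrays correlated in their deviations at r over 0.1 in 7 of 18 pairs (range -0.0719 to 0.597), with IL6 and IFNα at 0.528 for repeat 1 and 0.597 for repeat 3. Since not every pair did and the labels give no shared batch, the numbers were not treated as a pairing, and whether some arrays share one was not tested. Members near or below the lower quartile give compressed differences, and technical repeats carry no information on animals or cultures. The cause of these dependences was not tested.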
